A study of Arabidopsis thaliana with 30 samples.

Results

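The SEPALLATA genes SEP1 (AT5G15800), SEP2 (AT3G02310), SEP3 (AT1G24260) and SEP4 (AT2G03710) are 4 of the 33602 loci in the count tables. They were taken by locus name, and all 4 were present in both tables and passed the filter on low counts in every comparison. They encode MADS-domain transcription factors of Arabidopsis thaliana that act in all floral organs. SEP proteins join the A, B, C and D class MADS proteins in complexes of several subunits, and these complexes specify sepals, petals, stamens, carpels and ovules. Their functions overlap, so that single mutants show mild defects while plants lacking all 4 SEP genes make leaf-like organs in place of floral organs.

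RNA was sequenced from inflorescences of 4 groups, and all plants had the same genotype. They were mutant for ap1 and cal, carried AP1 fused to GR (glucocorticoid receptor) under the AP1 promoter, and held the reporter pSHP2-GAL4; pUAS-3xYpet, in which the SHP2 promoter makes GAL4 and GAL4 switches on a triple yellow fluorescent protein. SHP2 is a MADS gene of the medial domain of the gynoecium, the female organ of the flower, so the reporter marks cells with SHP2 promoter activity and no single cell type. NO-SORT was whole inflorescence frozen in liquid nitrogen (4 biological replicates). ALL-SORT (4), YFP-NEG (4) and YFP-POS (3) were protoplasts, which are cells freed of their walls, passed through a cell sorter without selection, without the fluorescence and with it. The labels used here give no age or hormone treatment, and they do not say whether a replicate is a separate batch of plants. The p-values therefore measure the spread among these libraries.

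The 15 libraries held between 12644721 counts (ALL-SORT replicate 3) and 21027032 counts (ALL-SORT replicate 4). SHP2 itself reached 36.1 ± 4.39 CPM (counts scaled to the total of the library) in YFP-POS (SD, n = 3) against 1.84 ± 0.611 CPM in the 4 YFP-NEG libraries. All 6 of 6 markers of the medial gynoecium were called higher in YFP-POS than in YFP-NEG (adjusted p under 0.05, edgeR). Of the 18830 genes tested in this comparison, 24.4% were called higher. A pair of libraries lay close to each other across their labels. ALL-SORT replicate 4 had a Pearson's r of log2 CPM of 0.953 to 0.978 with the NO-SORT libraries and of 0.944 to 0.963 with the other ALL-SORT libraries, and its highest value was with NO-SORT replicate 1. Results that rest on these groups are therefore also given without both libraries where they concern a called gene or ALL-SORT against NO-SORT. The genes of the response to stress and protoplasting are an exception.

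The genes lie apart in the genome, and their coding sequences are related unevenly. In the TAIR10.1 assembly and annotation of RefSeq, SEP1 lies on chromosome 5 at chr5:5151334-5154253 on the minus strand, with 7 exons and 789 coding bases. SEP2 lies at chr3:464279-467151 on the minus strand, with 7 exons and 753 coding bases. SEP3 lies at chr1:8593536-8596123 on the minus strand, with 8 exons and 756 coding bases. SEP4 lies at chr2:1129229-1131838 on the plus strand, with 8 exons and 777 coding bases. The first 120 coding bases are shown because they encode the start of the MADS domain, the DNA-binding part and the stretch in which the genes are most easily seen as a family. They are written from the start codon on the coding strand, and capitals mark the 32 positions at which the 4 genes are not all alike.
SEP1: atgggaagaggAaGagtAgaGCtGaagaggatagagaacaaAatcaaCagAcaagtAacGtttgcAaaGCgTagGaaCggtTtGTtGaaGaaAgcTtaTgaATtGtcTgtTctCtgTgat
SEP2: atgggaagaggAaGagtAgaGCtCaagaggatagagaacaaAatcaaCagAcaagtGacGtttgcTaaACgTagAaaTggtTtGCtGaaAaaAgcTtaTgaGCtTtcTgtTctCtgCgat
SEP3: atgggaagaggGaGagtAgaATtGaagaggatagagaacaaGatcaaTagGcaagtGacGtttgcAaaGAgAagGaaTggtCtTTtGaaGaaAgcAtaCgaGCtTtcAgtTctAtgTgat
SEP4: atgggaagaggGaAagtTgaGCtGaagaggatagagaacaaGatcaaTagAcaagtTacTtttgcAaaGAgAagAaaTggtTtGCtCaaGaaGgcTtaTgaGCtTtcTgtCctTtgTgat
These stretches lie in 1 exon each, at chr5:5153648-5153767, chr3:466568-466687, chr1:8595743-8595862 and chr2:1129622-1129741. The other 88 positions are identical in all 4 genes. Within the 120 bases SEP2 differs from SEP1 at 12 positions, and SEP3 and SEP4 each differ from SEP1 at 19.

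Over the aligned coding sequence, SEP1 and SEP2 were 86.4% identical, and the other 5 pairs were between 65.8% (SEP3 and SEP4) and 68.6% (SEP2 and SEP3) identical. The likeness matters for counting, since reads that fit 2 genes can be split or dropped. The reads were single-end and 125 cycles long. The most alike stretch of 125 bases was therefore sought in each pair, over the spliced transcripts with the longest coding sequence. For SEP1 and SEP2 it covers coding positions 325 to 449, in the middle of the coding sequence. It is shown spliced, 5′ to 3′, with the 10 mismatched positions in capitals.
SEP1: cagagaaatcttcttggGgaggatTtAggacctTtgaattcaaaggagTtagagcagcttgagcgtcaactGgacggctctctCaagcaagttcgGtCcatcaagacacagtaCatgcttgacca
SEP2: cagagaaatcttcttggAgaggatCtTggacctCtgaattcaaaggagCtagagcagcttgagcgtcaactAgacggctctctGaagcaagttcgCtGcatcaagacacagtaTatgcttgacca
These bases span chr5:5152199-5152502 and chr3:465270-465623. The other pairs had at least 18 mismatches in every such stretch, and the longest run shared without a mismatch was 32 bases, between SEP1 and SEP2. A full-length coding read thus differed between any pair at 10 or more positions. Whether shorter alignments were shared was not tested.

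A different kind of overlap concerns SEP1 alone. Its exons overlap the neighbouring locus AT5G15790 on the opposite strand over 100 bases and the noncoding locus AT5G02455, also on the opposite strand, over 449 bases. The libraries were strand-specific per the labels, but whether the counting used the strand is not given in the sources used here. Without strand, reads of SEP1 and its antisense partners cannot be told apart. SEP1 values are therefore uncertain to that extent, and no annotated locus overlaps SEP2, SEP3 or SEP4.

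All 4 genes were expressed in every library, at different levels. Per length of exon, SEP2 was the highest in all groups, followed by SEP3, SEP1 and SEP4. In NO-SORT the levels were 186 ± 12.4 CPM per kb for SEP2, 128 ± 5.52 for SEP3, 40.4 ± 3.60 for SEP1 and 26.4 ± 1.83 for SEP4 (SD, n = 4). In YFP-POS they were 179 ± 17.3, 127 ± 8.93, 53.8 ± 4.78 and 9.04 ± 1.86 CPM per kb in the same order (n = 3). The order of the genes was the same in all 4 groups.

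SEP4 was the SEP gene that fell in YFP-POS. In Arabidopsis it acts in sepal development and in the identity of the floral meristem, the tissue that gives rise to the flower. Its level was 12.9, 10.6 and 16.0 CPM in the YFP-POS libraries (replicates 1 to 3), from 236, 141 and 280 counts. In YFP-NEG it was 40.2, 31.2, 53.0 and 35.3 CPM (replicates 1 to 4). All YFP-POS libraries lay below all YFP-NEG libraries, the highest of the former at 16.0 CPM and the lowest of the latter at 31.2 CPM.

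The fitted log2 difference of SEP4 in YFP-POS against YFP-NEG was -1.55 (SE 0.21, 95% interval -2.00 to -1.10, adjusted p = 9.20e-05, edgeR quasi-likelihood test with Benjamini-Hochberg adjustment), which is 2.93-fold lower. It was the only SEP gene of 4 called in this comparison, in which 24.4% of the 18830 genes tested were called lower and 48.8% were called in either direction. A share of 1 in 4 lower is near that background. Of all genes tested, 8.90% had a lower log2 fold change than SEP4. The median over the 4 SEP genes was -0.19, against -0.01 over all genes tested. Within replicate numbers the log2 difference was -1.64, -1.56 and -1.73, so each pair of libraries showed it. In these bulk samples fewer cells of a type and less RNA per cell cannot be told apart.

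**Figure D1:**
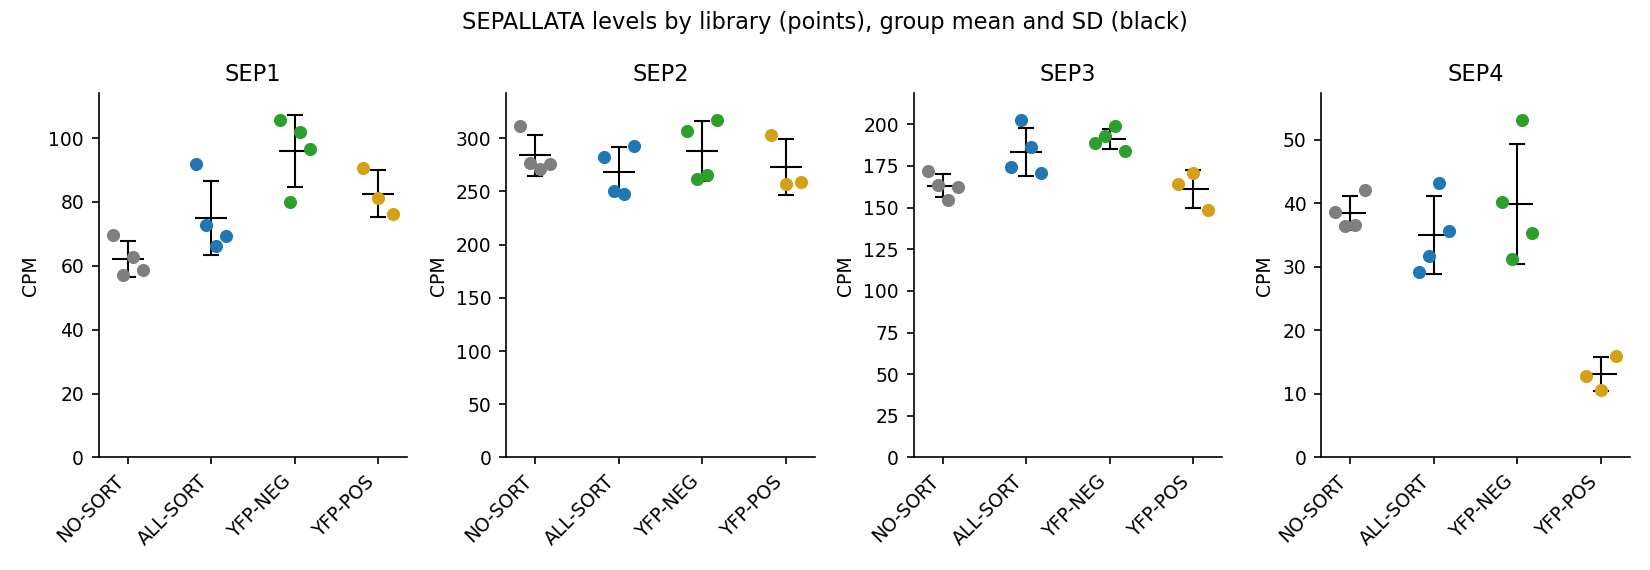
Level of each SEPALLATA gene in CPM (y axis from 0, a separate scale for each gene) in the 15 libraries. Each point is a library, and black marks are the group mean and SD. SEP4 in YFP-POS (10.6 to 16.0 CPM) lies below all libraries of the other groups, and the ranges of SEP2 overlap in all groups.

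In the other groups SEP4 was 29.2, 31.8, 43.2 and 35.7 CPM in ALL-SORT and 38.6, 36.4, 36.6 and 42.1 CPM in NO-SORT. All 8 of these libraries lay above all YFP-POS libraries. In YFP-POS against ALL-SORT the log2 difference of SEP4 was -1.41 with an SE of 0.20 (adjusted p = 0.00279, edgeR). It was the only SEP gene called there, where 10.5% of 18767 genes were called lower, 3.36% higher and 13.8% in either direction. With the replicate block, which pairs these libraries by number, SEP4 was at -1.40 (adjusted p = 1.76e-07, edgeR), and 24.5% of genes were called lower and 43.0% in either direction. Without YFP-POS replicate 1 or 2, 6.09% and 5.93% of genes were called. The share called was 24.0% in the fit of all 15 libraries, and 4.92% at an adjusted p under 0.01 in edgeR. In YFP-POS against NO-SORT the log2 difference of SEP4 was -1.50 with an SE of 0.16 (adjusted p = 2.80e-05, edgeR). There 23.8% of 18877 genes were called lower and 46.0% in either direction (28.9% lower and 15.4% higher with library totals). Without ALL-SORT replicate 4 and NO-SORT replicate 1 the values were -1.38 (adjusted p = 0.00302) and -1.54 (adjusted p = 7.89e-05) in edgeR. These comparisons share the YFP-POS libraries. ALL-SORT, NO-SORT and YFP-NEG were not called different from one another in SEP4. The log2 fold change was 0.18 for YFP-NEG against ALL-SORT (95% interval -0.22 to 0.59), -0.12 for ALL-SORT against NO-SORT (-0.42 to 0.17) and 0.11 for YFP-NEG against NO-SORT (-0.21 to 0.43).

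Other measures moved with the sorted groups beside the fall of SEP4. The summed level of the 6 medial gynoecium markers was 615 to 1016 CPM in YFP-POS and 68.0 to 89.4 CPM in YFP-NEG. The 6 anther markers summed to 1.65 to 3.71 CPM in YFP-POS and 14.3 to 47.6 CPM in YFP-NEG, with ATA7 at 0 in YFP-POS and MS1 at 0 in YFP-NEG. All 4 of the anther markers that were tested were lower in YFP-POS, where 24.4% of all genes were called lower. The 9 genes of the response to stress and protoplasting summed to 2605 to 3871 CPM in YFP-POS and 5091 to 7221 CPM in YFP-NEG. Of these, 7 of 9 were called lower in YFP-POS. The 3 genes of green tissue summed to 2994 to 3261 CPM in YFP-POS and 3949 to 5580 CPM in YFP-NEG, and 2 of 3 were called lower. The part of these differences in the SEP4 result was not tested.

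SEP3, the member with the broadest partnership among floral MADS proteins, was at 164, 171 and 148 CPM in YFP-POS and at 189, 193, 199 and 184 CPM in YFP-NEG. The YFP-POS libraries lay below the YFP-NEG libraries, without overlap. The log2 fold change was -0.21 (SE 0.11, 95% interval -0.45 to 0.04, adjusted p = 0.155, edgeR), so the difference was not called. Within replicate numbers it was -0.20, -0.18 and -0.42. With scaling by library totals it was -0.29 (adjusted p = 0.0463, edgeR) and in the fit of all 15 libraries -0.25 (adjusted p = 0.0484, edgeR), both past the threshold.

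SEP2, the most abundant of the 4, was not called in YFP-POS against YFP-NEG. Its level was 303, 257 and 258 CPM in YFP-POS and 307, 262, 266 and 317 CPM in YFP-NEG, and the ranges overlapped. The log2 fold change was -0.04 (SE 0.13, 95% interval -0.32 to 0.25, adjusted p = 0.841, edgeR).

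SEP1, the close relative of SEP2, was at 90.6, 81.2 and 76.1 CPM in YFP-POS and at 106, 80.0, 102 and 96.6 CPM in YFP-NEG. The ranges overlapped, and the log2 fold change was -0.18 (SE 0.13, 95% interval -0.46 to 0.11, adjusted p = 0.283, edgeR). The antisense neighbour AT5G15790 averaged 7.32 ± 0.890 CPM over the 3 YFP-POS libraries and 11.5 ± 1.52 CPM over the 4 YFP-NEG libraries, and its log2 difference was -0.61 (adjusted p = 0.0201, edgeR). Without YFP-NEG replicate 1 or 2 that call was lost (adjusted p = 0.0554 and 0.0595, edgeR). Per length of exon AT5G15790 was at 3.09 CPM per kb in YFP-POS, against 53.8 CPM per kb for SEP1. Its part in the SEP1 value was not tested. The level of AT5G02455, the antisense locus with the longer overlap (449 bases), was not examined.

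**Figure D2:**
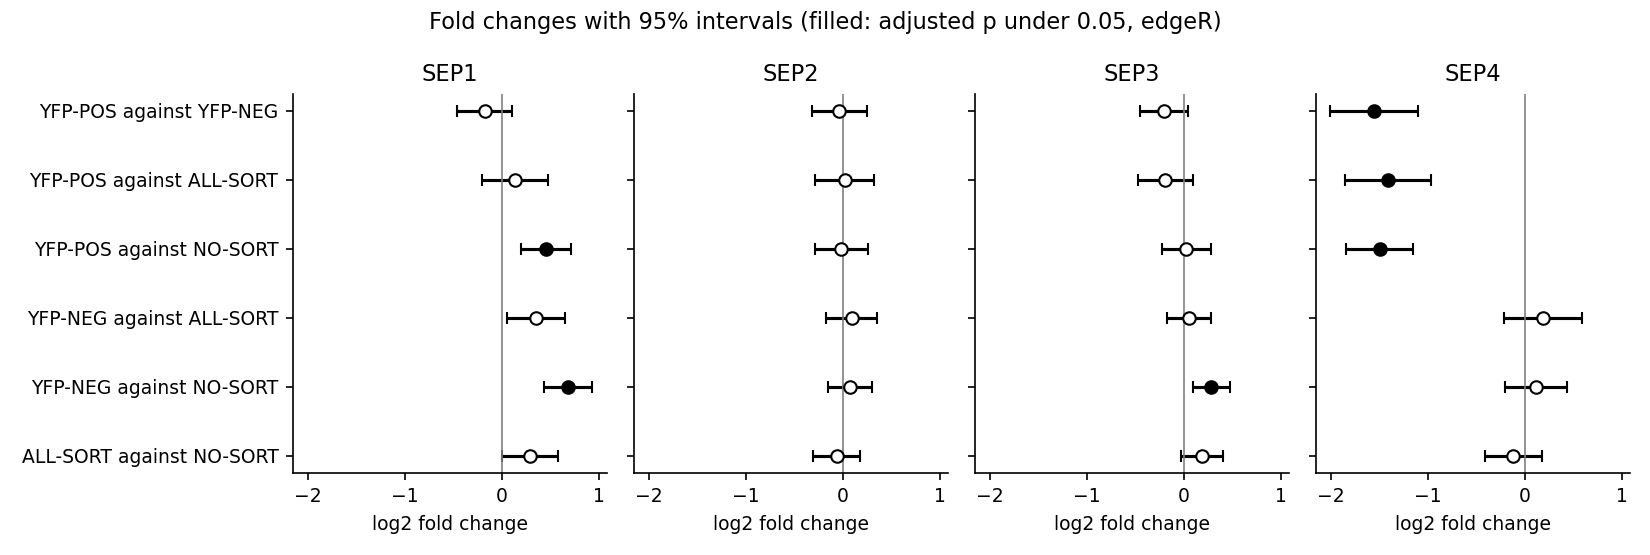
Log2 fold change of each SEPALLATA gene in the 6 comparisons, with 95% intervals on the x axis. Filled points passed an adjusted p under 0.05 in edgeR. SEP4 lies between -1.41 and -1.55 in the 3 comparisons with YFP-POS, and the intervals of SEP2 include 0 in all 6.

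Ratios between the SEP genes within a library do not depend on the scaling and were compared between YFP-POS and YFP-NEG. The mean log2 ratio of SEP2 to SEP4 counts was 4.39 ± 0.33 in YFP-POS (SD, n = 3) and 2.87 ± 0.38 in YFP-NEG (n = 4), a difference of 1.51. The difference was 1.38 for SEP1 to SEP4 and 1.34 for SEP3 to SEP4. In these 3 ratios no YFP-POS library overlapped a YFP-NEG library, and the two-sided exact permutation test gave p = 0.0571, the smallest that 3 against 4 libraries allow (adjusted p = 0.114 over 6 ratios). The ratios among SEP1, SEP2 and SEP3 differed by -0.14 (SEP1 to SEP2), 0.04 (SEP1 to SEP3) and 0.17 (SEP2 to SEP3), and their ranges overlapped. Their exact permutation p-values were 0.229, 0.971 and 0.286. These permutation tests did not pair libraries by replicate number.

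SEP4 made up 2.24%, 2.01% and 3.17% of the summed CPM per kb of the 4 genes in the YFP-POS libraries. In YFP-NEG its share was 6.18%, 5.40%, 8.40% and 5.51%. Its mean share was 6.12 ± 1.21% in ALL-SORT and 6.93 ± 0.540% in NO-SORT (SD, n = 4 each). The sum itself was 369 ± 24.9 CPM per kb in YFP-POS (n = 3), 429 ± 21.9 in YFP-NEG, 393 ± 8.70 in ALL-SORT and 381 ± 20.7 in NO-SORT (n = 4 each). SEP2 and SEP3 together held most of the sum in every library.

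**Figure D3:**
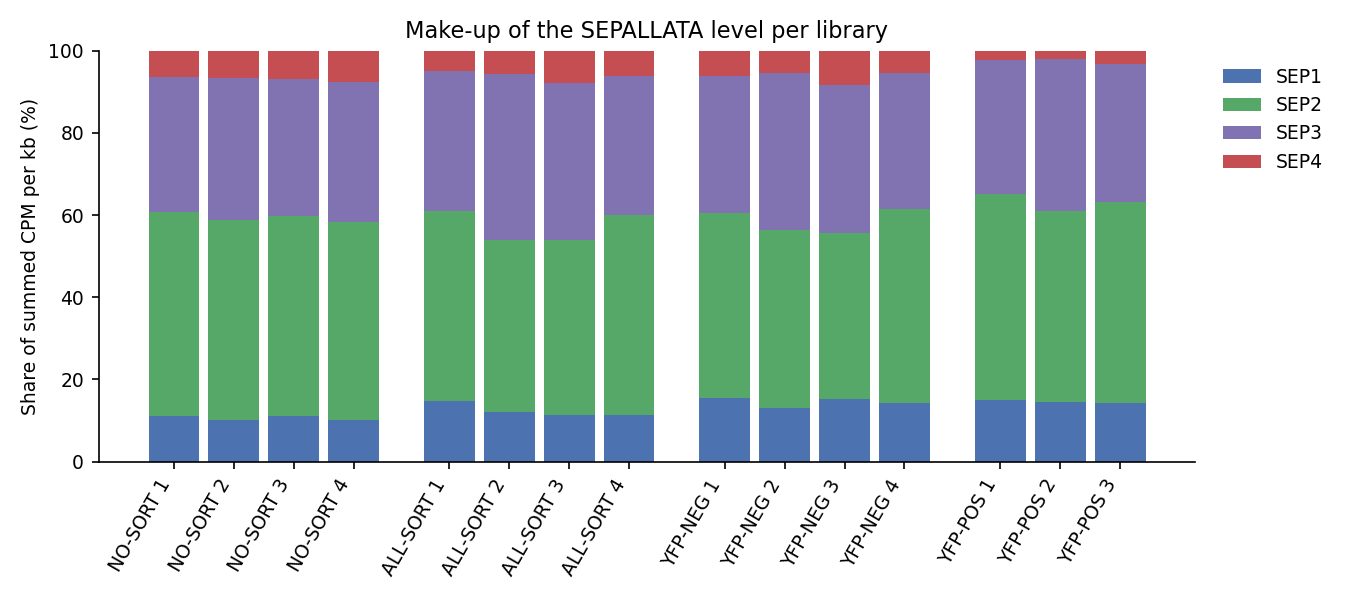
Share of each SEPALLATA gene in the summed CPM per kb of exon (y axis, percent) in each of the 15 libraries. SEP4 takes 2.01% to 3.17% in YFP-POS and 4.98% to 8.40% in the other groups.

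Sorting without selection was compared with frozen tissue in ALL-SORT against NO-SORT, and no SEP gene was called. In this comparison 13.4% of the 18733 genes tested were called, 9.84% higher and 3.60% lower. Without ALL-SORT replicate 4 the share was 29.7% (15.3% higher, 14.4% lower), and without it and NO-SORT replicate 1 it was 31.4%. With any one of the other libraries left out except NO-SORT replicate 1 it was 6.36% to 8.17%, and with library totals 7.90% were higher and 6.75% lower. The share called was 20.5% with DESeq2, and 5.12% at an adjusted p under 0.01 in edgeR. SEP1 had the largest difference of the 4, with 91.8, 72.7, 66.1 and 69.5 CPM in ALL-SORT and 69.6, 57.2, 62.7 and 58.7 CPM in NO-SORT. The ranges overlapped, and the log2 fold change was 0.29 (SE 0.13, 95% interval -0.00 to 0.58, adjusted p = 0.155, edgeR). SEP3 was at 175, 202, 186 and 170 CPM in ALL-SORT and 172, 164, 155 and 162 CPM in NO-SORT, with a log2 fold change of 0.18 (adjusted p = 0.217, edgeR). SEP2 was at 283, 251, 248 and 293 CPM in ALL-SORT and 312, 276, 271 and 276 CPM in NO-SORT, with a log2 fold change of -0.06 (adjusted p = 0.711, edgeR).

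Without ALL-SORT replicate 4 and NO-SORT replicate 1 the log2 fold changes of ALL-SORT against NO-SORT were 0.38 for SEP1 (adjusted p = 0.0629), 0.24 for SEP3 (adjusted p = 0.0936), -0.06 for SEP2 and -0.13 for SEP4 in edgeR. The ratio of SEP1 to SEP2 was higher in ALL-SORT by 0.35 on the log2 scale, and the groups did not overlap. The exact permutation p was 0.0286, the smallest that 4 against 4 libraries allow, and 0.171 when adjusted over 6 ratios. Without ALL-SORT replicate 4 and NO-SORT replicate 1 the difference was 0.43. The 9 stress genes summed to 94.7 to 134 CPM in NO-SORT and 1323 to 6253 CPM in ALL-SORT. All 9 were called higher in ALL-SORT, where 9.84% of all genes were called higher. Without ALL-SORT replicate 4 and NO-SORT replicate 1 the share of all genes called higher was 16.2%. The calls of the stress genes without both libraries are not given here.

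SEP1 and SEP3 were higher in YFP-NEG than in NO-SORT. SEP1 rose from 62.1 ± 5.53 to 96.0 ± 11.3 CPM (SD, n = 4 each), a log2 difference of 0.68 with an SE of 0.11 (adjusted p = 3.36e-04, edgeR), and no libraries overlapped. SEP3 rose from 163 ± 7.02 to 191 ± 6.18 CPM, a log2 difference of 0.28 with an SE of 0.09 (adjusted p = 0.0178, edgeR), and no libraries overlapped. Thus 2 of 4 SEP genes were called higher, where 25.7% of the 18886 genes tested were called higher, 25.9% lower and 51.6% in either direction (19.4% higher and 32.3% lower with library totals). Without ALL-SORT replicate 4 and NO-SORT replicate 1, of which NO-SORT replicate 1 enters here, the differences were 0.76 for SEP1 (adjusted p = 1.38e-04, edgeR) and 0.32 for SEP3 (adjusted p = 0.00580, edgeR). AT5G15790 was higher as well, by 0.56 (adjusted p = 0.00820, edgeR), and by 0.64 without NO-SORT replicate 1 (adjusted p = 0.00564, edgeR). The SEP3 call is lost in 3 of the 8 fits that leave out a library (adjusted p = 0.0532, 0.0523 and 0.0544 in edgeR without NO-SORT replicate 2, 3 or 4).

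SEP1 was also higher in YFP-POS than in NO-SORT, by 0.45 in log2 units with an SE of 0.12 (adjusted p = 0.00843, edgeR), and no libraries overlapped. In that comparison 22.2% of genes were called higher. Without NO-SORT replicate 1 the SEP1 value was 0.47 (adjusted p = 0.00910, edgeR). Leaving out NO-SORT replicate 2 or 4 gave adjusted p = 0.0615 and 0.0581 in edgeR. SEP3 and SEP2 had log2 fold changes of 0.02 and -0.01 there, neither called. The mean CPM of SEP3, scaled over all 15 libraries, was 161 in YFP-POS and 163 in NO-SORT, opposite in sign to its fitted value. In YFP-NEG against ALL-SORT no SEP gene was called (13.6% of 18658 genes tested were, 2.65% higher and 10.9% lower), and SEP1 had the largest value, 0.35 (adjusted p = 0.110, edgeR). The share of genes called was 4.64% to 6.59% without YFP-NEG replicate 1, 3 or 4 or ALL-SORT replicate 3. Without ALL-SORT replicate 1 this SEP1 value was 0.47 (adjusted p = 0.0447, edgeR), and without ALL-SORT replicate 4 it was 0.32 (adjusted p = 0.173, edgeR). These comparisons share their groups, and the stress genes summed to at least 2605 CPM in each YFP-POS or YFP-NEG library and to at most 134 CPM in NO-SORT. Their part in the SEP1 and SEP3 differences was not tested.

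Ordered by mean CPM, SEP1 ran YFP-NEG, YFP-POS, ALL-SORT, NO-SORT. SEP2 ran YFP-NEG, NO-SORT, YFP-POS, ALL-SORT, and SEP3 ran YFP-NEG, ALL-SORT, NO-SORT, YFP-POS. SEP4 ran YFP-NEG, NO-SORT, ALL-SORT, YFP-POS. Of the 12 steps between neighbours in these orders, the step from ALL-SORT to YFP-POS in SEP4 was the one called in edgeR and the one whose ranges did not overlap. The other 11 steps were not called, and their ranges overlapped.

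Relatives and partners of the SEP genes were read from the same fit of the reporter-sorted groups. Of the 6 genes of the AP1 and AGL6 clades, 4 were tested. All 4 were called lower in YFP-POS, where 24.4% of all genes were called lower. Their median log2 fold change was -2.10, against -0.01 over all genes tested. These 4 genes were AP1 (-2.06) and CAL (-2.93), which act in floral meristem identity, FUL (-2.09), which acts in fruit development, and AGL6 (-2.11). The plants are mutant for ap1 and cal, and whether reads of their AP1:GR transgene entered the AP1 count is not given in the sources used here. AGL79 had no count in any library, and AGL13 was too low to be tested.

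The partners of the SEP proteins fell on both sides. The B class genes AP3 (-1.91) and PI (-1.81), which specify petals and stamens, were lower in YFP-POS. The C class gene AG was higher by 0.69, from 52.8 ± 6.01 CPM in YFP-NEG (n = 4) to 82.8 ± 2.89 CPM in YFP-POS (n = 3). SHP1 (5.11), SHP2 (4.35) and STK (2.61), which act in carpels and ovules, were higher. All 6 partners were called, 4 higher and 2 lower, with a median of 1.65, where 48.8% of all genes were called. SHP2 promoter activity was the basis of the sort.

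Of 9 regulators that act before or on SEP genes, 7 were lower and 2 higher in YFP-POS, with a median of -1.66. Over all genes tested 24.4% were called in each direction. Among those that were lower were TFL1 (-3.07), which keeps the shoot meristem indeterminate, the flowering-time MADS genes SVP (-2.46), AGL24 (-2.22) and SOC1 (-1.66), and LFY (-0.72), the floral meristem regulator. UFO (-1.98) and AP2 (-0.64) were lower as well. The higher ones were SEU (0.69) and LUG (0.40), which act together as co-repressors in the flower. The LUG call was lost in 8 of 17 alternatives, with adjusted p up to 0.114 in edgeR. These were upper-quartile scaling, library totals, the fit of all 15 libraries, the threshold of 0.01, and the fits without YFP-NEG replicate 1, 2 or 4 or YFP-POS replicate 3.

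Of 7 genes downstream of AG and SEP proteins, 6 were tested. Of these, 1 was called higher and 2 were called lower (median -0.91), where 48.8% of all genes were called. CRC, a carpel regulator that is also one of the medial gynoecium markers, was higher by 4.02. SPL/NZZ, which starts sporogenesis, was lower by a log2 fold change of -1.65. KNU, which ends stem cell activity in the flower, was lower, with 1 count over the 3 YFP-POS libraries and 97 counts over the 4 YFP-NEG libraries. Scaled to depth that is a ratio of 0.0122, with an exact 95% interval of 3.07e-04 to 0.0699 that covers counting error only. GA3OX1 (-1.43), SUP (-0.39) and JAG (0.01) were not called, and DAD1 was not tested. GA3OX1 rests on few counts: without YFP-POS replicate 3 its value was -4.11 (adjusted p = 0.00435, edgeR), and limma-voom gave -2.58 (adjusted p = 0.0366). In ALL-SORT against NO-SORT 2 of the 24 tested genes of these 4 lists were called, where 13.4% of all genes were called, LFY higher by 0.74 (adjusted p = 0.0246, edgeR) and SOC1 lower at -0.45 (adjusted p = 0.0272, edgeR). Without ALL-SORT replicate 4 and NO-SORT replicate 1 they were 0.99 (adjusted p = 5.45e-04, edgeR) and -0.56 (adjusted p = 0.00428, edgeR). Both calls were lost when any one of NO-SORT replicates 2 to 4 or ALL-SORT replicates 1 to 3 was left out (adjusted p up to 0.0807 for LFY and 0.0980 for SOC1, edgeR).

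**Figure D4:**
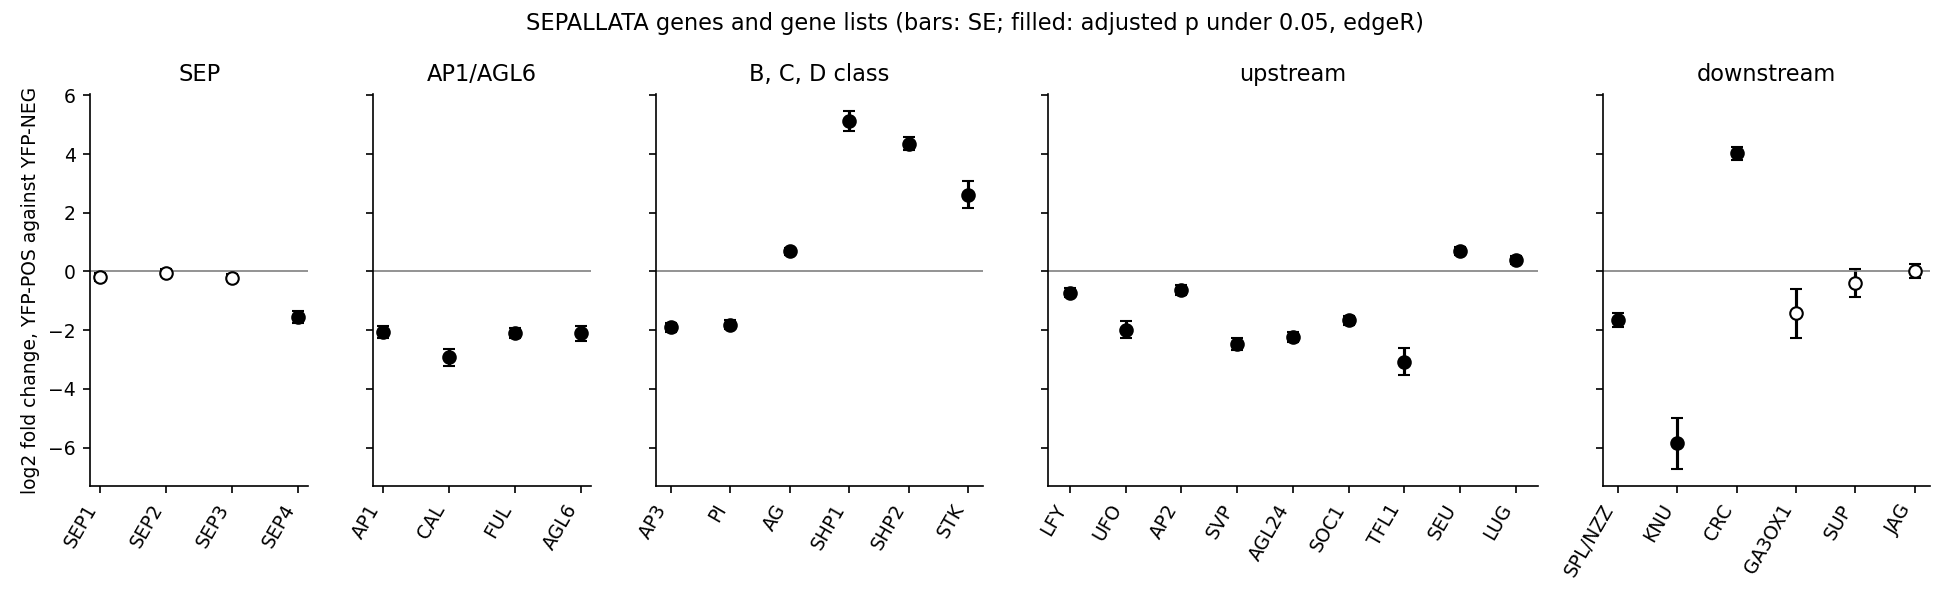
Log2 fold change of YFP-POS against YFP-NEG (y axis) for the SEPALLATA genes and for the members of 4 gene lists that were tested, with SE bars. The value drawn for KNU rests on 1 count in YFP-POS and depends on the prior count of the fit. Filled points passed an adjusted p under 0.05 in edgeR. SEP4 (-1.55) lies near SOC1 (-1.66) and PI (-1.81), and SEP1, SEP2 and SEP3 lie within 0.21 of 0.

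The genes whose log2 CPM over the 15 libraries was most like that of each SEP gene differed between members. For SEP4 they were HIPP20, ABCG14, HB40, BZIP9 and TPPH, with Pearson's r of 0.969 to 0.982 (n = 15 libraries, 19460 genes). For SEP1 they were AT5G60990, AT5G40270, FUS6, AT3G22450 and AT4G17240, with r of 0.932 to 0.946. For SEP2 they were AT5G62550, AT4G18490, AT4G14200, ARG1 and AT3G59630, with r of 0.849 to 0.914. For SEP3 they were SFGH, RAB8C, AT1G23440, AT1G78895 and GRF9, with r of 0.915 to 0.942. These values are a description, since the libraries of a group share their sort. The lists depend on how levels were scaled: with scaling factors from all loci instead of the genes that passed the filter, 5 of 5 genes were shared for SEP1, 3 of 5 for SEP2, 1 of 5 for SEP3 and 4 of 5 for SEP4.

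Among the SEP genes themselves the correlations over the 15 libraries were lower, from -0.15 for SEP1 and SEP4 to 0.46 for SEP1 and SEP3. They are given as a description, since the libraries fall into 4 groups.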

How the data were processed

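The authors deposited whole-number counts per locus in 2 tables, split between the control groups (NO-SORT, ALL-SORT) and the fluorescence-sorted groups, with one column for each biological replicate. Each of the 15 libraries was run in 2 lanes per the labels, which gives the 30 samples. How lanes were combined is not given in the sources used here. Per the submitters' processing notes the tools were FastQC, TopHat2 2.0.10, HTSeq, Cufflinks 2.2.1, edgeR and DESeq2, with the build TAIR10.

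All genes were tested by quasi-likelihood in edgeR 4.0.16 (R 4.3.3), with filterByExpr, TMM scaling and Benjamini-Hochberg adjustment, on the libraries of the groups compared. Calls required an adjusted p under 0.05. Levels are CPM after TMM scaling over the 15 libraries. The scaling factors for levels were first computed over all loci and were replaced, after the values had been seen, by factors over the genes that pass filterByExpr, to match the filter of the fits. The first version was kept as an added alternative. CPM per kb uses the summed exon length in RefSeq's TAIR10.1 annotation, which also gave coordinates and sequences. Ratios used counts plus 0.5 and a two-sided exact permutation test (SciPy 1.17.1). The tests were run on simulated counts first.

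The SEP genes, gene lists, markers and alternatives were chosen with earlier results of these data known. Named genes were drawn from the 4 SEP genes, the members of the lists, and for each SEP gene the 5 genes with the highest Pearson's r of log2 CPM. Many markers are given only as part of their list. AT5G15790 was added as it overlaps SEP1. Meristem markers were counted too: in YFP-POS against YFP-NEG, 1 of 3 tested was called lower and none higher, where 24.4% of all genes were called lower. The lower one was CLV1 (-1.04), STM and WUS were not called, and CLV3 was not tested. The 4 meristem markers summed to 88.7 to 106 CPM in YFP-POS and to 108 to 145 CPM in YFP-NEG. Their part in the SEP4 result was not tested.

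Same-numbered libraries deviated together in YFP-POS with YFP-NEG (r 0.183 to 0.294), YFP-NEG with ALL-SORT (0.124 to 0.350) and YFP-POS with ALL-SORT (0.363 to 0.437), all above the limit of 0.1. With NO-SORT they did not. The main fits and the permutation tests took no account of this pairing, and the replicate block below does. The alternatives tried were scaling by RLE, by the upper quartile and by library totals, 2 other filters, DESeq2 1.42.0, limma-voom (limma 3.58.1), a replicate block, all 15 libraries in the fit, a stricter threshold, and each library left out.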

Additional observations from a re-analysis of the deposited data

Results flagged for a closer look

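The level of SEP2 in NO-SORT was flagged for a library far from the others. NO-SORT replicate 1 stood at 312 CPM, and the other 3 libraries stood at 271 to 276 CPM. The gap was 0.863 of the range of the group. This was 1 of 30 groups of 4 libraries examined, and chance flags about 1 in 20. NO-SORT replicate 1 is the library that resembled ALL-SORT replicate 4. Without both, the SEP2 log2 fold change of ALL-SORT against NO-SORT was -0.06 (adjusted p = 0.689, edgeR).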

How the results depend on the processing

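The fall of SEP4 kept its direction and stayed past its threshold in every alternative. The log2 fold change ranged from -1.74 to -1.39 for YFP-POS against YFP-NEG, from -1.55 to -1.28 against ALL-SORT and from -1.70 to -1.37 against NO-SORT. The SEP1 difference of YFP-NEG against NO-SORT also held, at 0.57 to 0.78.

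The cause of the following changes was not tested. With library totals, which moved the median of all genes by -0.12 to -0.14 on the log2 scale in comparisons with NO-SORT, YFP-NEG against NO-SORT gave -0.041 for SEP2, 0.17 for SEP3 (adjusted p = 0.119, edgeR) and -0.0034 for SEP4, YFP-POS against NO-SORT gave -0.12 for SEP3, and YFP-POS against YFP-NEG gave -0.29 for SEP3, which then passed. SEP3 in YFP-POS against NO-SORT was -0.056 with upper-quartile scaling, -0.019 with the 1 CPM filter and -0.019 in the fit of all 15 libraries. SEP2 there was 0.024 without a filter. In the fit of all 15 libraries SEP3 passed in YFP-POS against YFP-NEG (-0.25) and missed in YFP-NEG against NO-SORT (0.23). At the stricter threshold of 0.01 SEP3 in YFP-NEG against NO-SORT (0.28) missed.

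With the replicate block SEP2 in YFP-POS against YFP-NEG was 0.015 (adjusted p = 0.927, edgeR), and the block changed no call in the comparisons whose numbers pair. In comparisons with NO-SORT, which share only numbers, the block gave 0.28 for SEP3 (YFP-NEG, adjusted p = 0.0507, edgeR) and 0.43 for SEP1 (YFP-POS, adjusted p = 0.0629, edgeR).

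Leaving out each library gave the following lowest and highest values. In YFP-POS against YFP-NEG they were -0.089 and 0.026 for SEP2, and -0.053 and 0.091 for the log2 ratio of SEP1 to SEP3. In ALL-SORT against NO-SORT the ratio of SEP1 to SEP3 was -0.025 to 0.16 and that of SEP2 to SEP4 was -0.039 to 0.21. SEP1 in YFP-NEG against ALL-SORT was 0.30 to 0.47, and SEP2 in YFP-POS against ALL-SORT was -0.020 to 0.080. In YFP-NEG against NO-SORT SEP3 was 0.25 to 0.32 and SEP4 was -0.058 to 0.23. In YFP-POS against NO-SORT SEP1 was 0.37 to 0.47, SEP2 -0.080 to 0.018 and SEP3 -0.046 to 0.038.

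JAG in YFP-POS against YFP-NEG, at 0.01, changed sign to -0.085 (upper quartile), -0.064 (library totals), -0.011 (limma-voom), -0.065 (replicate block) and -0.034 (all 15 libraries), and it ranged from -0.26 to 0.13 with a library left out. Group means of the 4 SEP genes moved by less than 1 SD when scaling factors came from all loci, an alternative chosen after seeing the data. With those factors SEP3 in NO-SORT was 157 CPM and in YFP-POS 168 CPM, and SEP2 was 273 and 285 CPM, the opposite order to that reported for both genes. The number of libraries, 3 or 4 a group, limits the precision to the printed intervals.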
